A study of Mus musculus with 12 samples.

Results

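Cd79a, Cd79b, Ms4a1, Pax5, Cd22, Blk and Fcer2a are transcribed mainly in cells of the B lineage, and they were read as a group in whole gonadal white adipose tissue (gWAT). The 7 genes were taken by name from the 19792 gene rows of a table of raw read counts, by a rule that names genes and uses no count, and 7 of 7 passed the filter on low counts that left 16352 genes for testing. The study set KO against WT male mice on a high-fat diet (HFD) or a normal chow diet (NCD), giving 4 groups of 3 gWAT libraries. KO mice carried Csf1r-CreER and Gja1 flox/flox alleles, so that tamoxifen deleted Gja1, the gene of the gap junction protein connexin 43 (Cx43), in cells that use the Csf1r promoter, which is chiefly active in macrophages and related myeloid cells. WT mice were Gja1 flox/flox without CreER. The name of the CreER stock begins with FVB and that of the floxed stock with B6.129, while the labels give C57BL/6 for all animals, so any effect of strain background and one of genotype cannot be told apart. All groups received tamoxifen, which the deposited protocol places for 5 days in weeks 1 and 5 of an 8-week diet begun at 6 weeks of age, whereas the methods of the study place it before the experiments. Libraries are named by group and number, and the WT-HFD library that the count table numbers 4 is called WT-HFD 4. The labels do not say whether each library came from 1 mouse, so p-values measure the spread between these libraries.

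B cells recognise antigen through a membrane antibody that signals through the CD79A and CD79B chains. Pax5 is the transcription factor that commits lymphoid progenitors to the B lineage, and the surface proteins and kinases studied here are made once that program is running. B cells are resident in visceral fat of mice, where they accumulate during diet-induced obesity, present antigen to T cells and secrete antibody.

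The genes lie on 6 chromosomes of GRCm38, the assembly also called mm10. The positions are chr7:24897497-24901858 on the plus strand for Cd79a (Entrez 12518), chr11:106311341-106314562 on the minus strand for Cd79b (15985) and chr19:11249679-11266149 on the minus strand for Ms4a1 (12482). Pax5 (18507) spans chr4:44524748-44710694, Cd22 (12483) chr7:30865404-30880342, Blk (12143) chr14:63372837-63417187 and Fcer2a (14128) chr8:3680280-3694174, all on the minus strand. Fcer2a overlaps Trappc5, which stood at 31.5 to 46.7 CPM (a gene's read count scaled to a common library size) in all 12 libraries, and the strand setting used in counting was not given in the sources used here, so reads from that overlap could have been assigned to either gene. Ms4a1 overlaps 4930526L06Rik and Pax5 overlaps 5730488B01Rik, each with at most 2 reads in any library, and Blk overlaps Gm36165.

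Promoters of Cd79a and Cd22 are shown because Cd79a followed the mean of the 7 genes closely over the libraries and Cd22 followed it least. Each is the RefSeq sequence of GRCm38.p6 from 250 bases before to 50 after the annotated start, read 5′ to 3′ along the gene at chr7:24897247-24897546 (plus strand) and chr7:30878979-30879278 (minus strand). The start used for Cd22 lies inside the annotated span of the gene.
Cd79a: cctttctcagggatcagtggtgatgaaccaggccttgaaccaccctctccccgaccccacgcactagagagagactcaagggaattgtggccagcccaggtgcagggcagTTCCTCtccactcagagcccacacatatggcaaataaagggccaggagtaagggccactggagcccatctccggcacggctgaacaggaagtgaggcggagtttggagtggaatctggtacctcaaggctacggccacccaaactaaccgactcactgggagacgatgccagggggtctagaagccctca
Cd22: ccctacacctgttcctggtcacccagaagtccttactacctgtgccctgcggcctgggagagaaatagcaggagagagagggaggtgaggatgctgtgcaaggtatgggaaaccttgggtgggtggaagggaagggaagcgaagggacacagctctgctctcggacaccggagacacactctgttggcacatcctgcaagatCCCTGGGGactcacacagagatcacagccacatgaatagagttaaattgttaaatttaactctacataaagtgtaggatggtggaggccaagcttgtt
Capitals mark matches to 4 short motifs searched on both strands. These were the octamer ATGCAAAT of Oct factors, held by 1.74% of all 32851 promoters of that length, CCCNNGGG, the core bound by EBF1, held by 13.7%, GAGGAA, an ETS-type core, held by 28.3%, and TATAAA, held by 13.6%. Cd79a held 1 match to GAGGAA, on the reverse strand and starting 140 bases before the start, and Cd22 held 1 match to CCCNNGGG, starting 48 bases before it. Fcer2a held TATAAA in 1 of its 3 RefSeq promoters and no match in the others, and Pax5 held none of these letters in the window. RefSeq promoters were at hand for 4 of the 7 genes (Cd79a, Cd22, Pax5 and Fcer2a).

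Total counts ran from 47185990 to 73167755 per library. Gja1 itself stood at 67.2, 96.8 and 65.7 CPM in KO-HFD 1, 2 and 3 and at 48.9, 149.8 and 67.1 CPM in KO-NCD 1, 2 and 3, against 68.8, 65.8 and 68.1 CPM in WT-HFD 1, 2 and 4 and 73.8, 76.8 and 83.6 CPM in WT-NCD 1, 2 and 3. The log2 fold change of Gja1 was 0.18 ± 0.33 (SE) in KO-HFD against WT-HFD (edgeR adjusted p = 0.741) and 0.18 ± 0.33 in KO-NCD against WT-NCD (0.736). These whole-tissue counts thus did not show the deletion, and no isolated macrophages were analysed here. The study itself reported the knockout by qPCR in macrophages isolated from the fat. It also reported genotype effects in gWAT, on Gja1 by qPCR and on Cx43 protein by immunoblot. The 10 seminal vesicle genes summed to 22297 to 120400 CPM in WT-NCD libraries and to at most 16.1 CPM in any other, so WT-NCD libraries held transcripts of that gland. The 10 liver genes had median log2 fold changes of 4.80 in KO-HFD against WT-HFD and 5.08 in KO-NCD against WT-NCD, with 9 positive in each. edgeR called 1 higher in each, and 1 lower in the second. Alb, named after its values were seen, ran from 92.4 to 1045 CPM in KO-HFD and 2.89 to 383 CPM in KO-NCD. In WT-HFD it ran from 2.66 to 33.0 CPM and in WT-NCD from 4.58 to 8.37 CPM. The part of liver transcripts in the results was not tested. The 8 adipocyte genes, Adipoq among them, summed to at least 12835 CPM in every library.

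KO-HFD 3 stood apart from all other libraries in B cell transcripts. It held the highest level of 7 of 7 B cell genes, where it was the highest library for 5.44% of the 16352 tested genes. Their summed level was 18.6, 47.3 and 159.5 CPM in KO-HFD 1, 2 and 3, 52.7, 20.5 and 35.0 CPM in KO-NCD 1, 2 and 3, 22.1, 12.7 and 27.9 CPM in WT-HFD 1, 2 and 4, and 18.1, 14.0 and 25.6 CPM in WT-NCD 1, 2 and 3. KO-HFD 1 lay below all KO-NCD libraries, so the KO-HFD group held both the highest library and one near the WT level. In whole tissue, a larger number of B cells and more of a transcript per B cell cannot be told apart. KO-HFD 3 and WT-HFD 4 were also the libraries lowest in Hbb-bs, an adult haemoglobin gene chosen after its values were seen, at 5.59 and 9.45 CPM, against 156 to 449 CPM in the other 10. The 8 erythroid genes together summed to 309 and 329 CPM in KO-HFD 3 and WT-HFD 4, within the 293 to 958 CPM of the other libraries. Hbb-bs thus did not stand for that list. The part of these shared low Hbb-bs values in the results was not tested.

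Cd79a encodes the Ig-alpha chain of the B cell receptor complex. Its level was 3.88, 10.5 and 46.9 CPM in KO-HFD 1, 2 and 3 and 12.5, 3.76 and 7.68 CPM in KO-NCD 1, 2 and 3, against 1.43, 1.56 and 5.88 CPM in WT-HFD 1, 2 and 4 and 4.71, 2.47 and 5.36 CPM in WT-NCD 1, 2 and 3. KO-HFD 3 was 3.76 times the next library, KO-NCD 1, and WT-HFD 1 and 2 were the lowest. Behind the lowest value were 70 reads, and behind the highest 2609. Averaged over 3 libraries each, Cd79a came to 20.4 ± 23.1 CPM (SD) in KO-HFD, 7.97 ± 4.36 in KO-NCD, 2.96 ± 2.53 for WT-HFD and 4.18 ± 1.52 for WT-NCD. Each group overlapped every other.

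Cd79b encodes Ig-beta, the partner chain. It stood at 3.46, 7.90 and 34.6 CPM in KO-HFD 1, 2 and 3 and 11.002, 3.58 and 7.34 CPM in KO-NCD 1, 2 and 3, against 3.70, 2.34 and 5.43 CPM in WT-HFD 1, 2 and 4 and 3.66, 3.02 and 4.52 CPM in WT-NCD 1, 2 and 3. KO-HFD 3 was again the highest, and KO-HFD 1 lay inside the WT range. The WT group means hardly differed, at 3.82 ± 1.55 CPM (SD, n = 3) on HFD and 3.73 ± 0.75 CPM (n = 3) on NCD. Per kilobase of exon, Cd79a and Cd79b had the highest group means of the genes in all 4 groups, with 32.2 and 24.2 CPM per kb in KO-HFD 3, though Cd22 exceeded both in WT-HFD 1 and Cd79a in WT-HFD 2.

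Ms4a1 encodes CD20, a surface protein of mature B cells that plasma cells lose. Its level was 2.62, 7.97 and 27.5 CPM in KO-HFD 1, 2 and 3 and 7.56, 3.40 and 4.84 CPM in KO-NCD 1, 2 and 3, against 0.92, 0.88 and 4.48 CPM in WT-HFD 1, 2 and 4 and 3.59, 2.23 and 4.84 CPM in WT-NCD 1, 2 and 3. WT-HFD split into a pair of low libraries, with 45 and 63 reads, and WT-HFD 4, with 241 reads, which lay among the WT-NCD libraries.

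Pax5, the lineage factor, was the least abundant gene, with a group mean per kilobase of 0.17 CPM in KO-HFD. Pax5 stood at 0.27, 0.91 and 2.91 CPM in KO-HFD 1, 2 and 3 and 1.27, 0.41 and 0.67 CPM in KO-NCD 1, 2 and 3, against 0.20, 0.13 and 0.61 CPM in WT-HFD 1, 2 and 4 and 0.59, 0.26 and 0.85 CPM in WT-NCD 1, 2 and 3. The order of the libraries resembled that of Ms4a1, and the lowest values rested on 9 and 10 reads in WT-HFD 2 and 1.

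Fcer2a encodes CD23, the low-affinity IgE receptor of follicular B cells. Its level was 1.11, 3.91 and 15.9 CPM in KO-HFD 1, 2 and 3 and 4.31, 1.67 and 2.49 CPM in KO-NCD 1, 2 and 3, against 0.72, 0.60 and 1.73 CPM in WT-HFD 1, 2 and 4 and 1.52, 1.17 and 2.68 CPM in WT-NCD 1, 2 and 3. KO-HFD 3 was 3.69 times the next library, and WT-HFD 1 and 2 were again the lowest.

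Blk encodes a Src-family kinase that acts downstream of the B cell receptor. It stood at 2.19, 3.09 and 7.87 CPM in KO-HFD 1, 2 and 3 and 2.63, 1.44 and 1.93 CPM in KO-NCD 1, 2 and 3, against 1.00, 1.57 and 2.18 CPM in WT-HFD 1, 2 and 4 and 0.76, 1.19 and 1.33 CPM in WT-NCD 1, 2 and 3. Every KO library lay above every WT library on the same diet, though KO-HFD 1 and WT-HFD 4 were nearly level.

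Cd22 encodes an inhibitory sialic acid-binding receptor that dampens B cell receptor signalling. Its level was 5.10, 13.0 and 23.9 CPM in KO-HFD 1, 2 and 3 and 13.5, 6.21 and 10.03 CPM in KO-NCD 1, 2 and 3, against 14.1, 5.63 and 7.61 CPM in WT-HFD 1, 2 and 4 and 3.24, 3.64 and 6.05 CPM in WT-NCD 1, 2 and 3. Unlike the other genes, Cd22 had its second-highest value in WT-HFD 1, a library in which Cd79a, Ms4a1, Pax5 and Fcer2a were at or near their lowest.

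**Figure D1:**
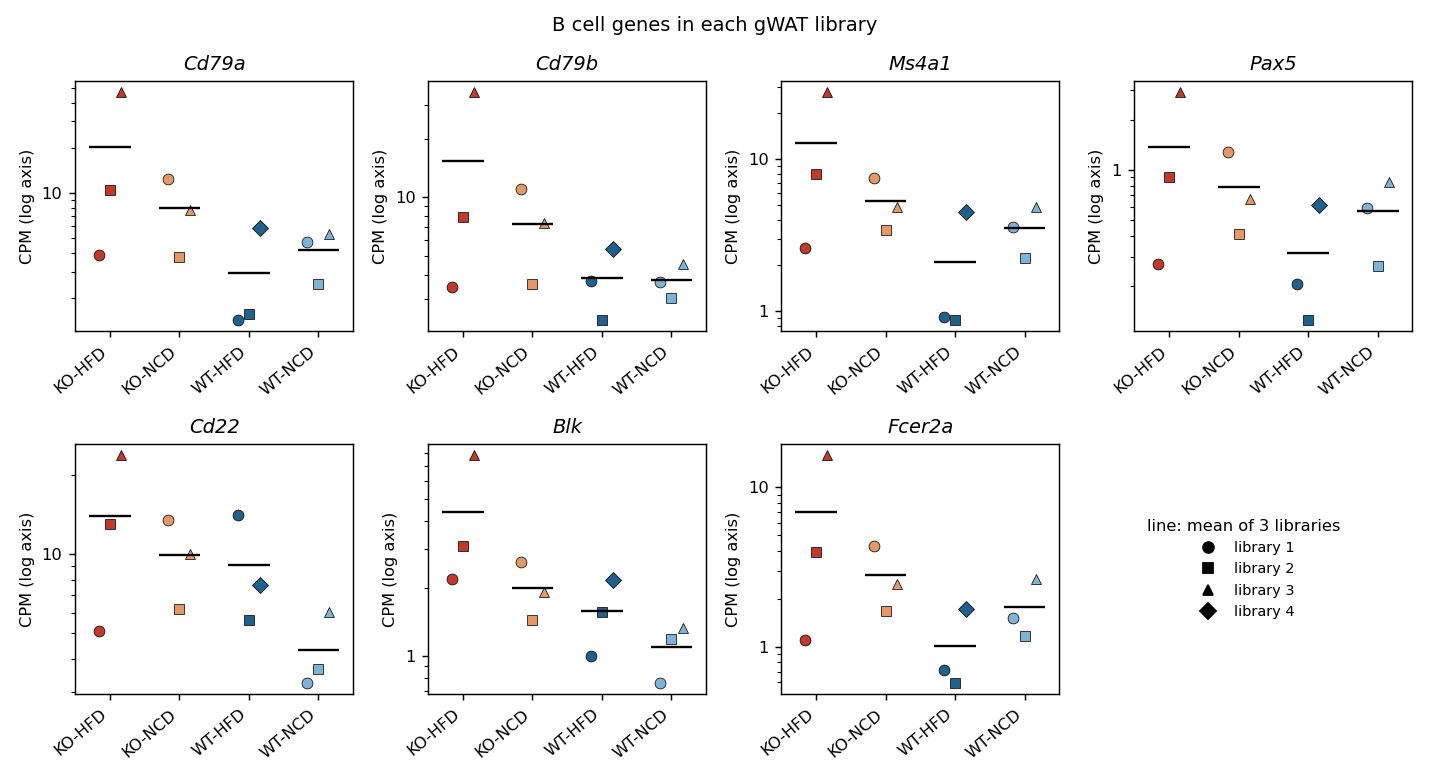
Level of each B cell gene in CPM on a log axis, with 1 point per library and a line at the group mean of 3 libraries. KO-HFD 3 (triangle, left) is the highest point for all 7 genes, and WT-HFD 1 stands high for Cd22 but low for Cd79a and Ms4a1.

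The comparison of KO-HFD with WT-HFD asks whether loss of Cx43 in macrophages went with other B cell transcript levels in obese fat. All 7 genes had higher group means in KO-HFD, but edgeR's quasi-likelihood test with Benjamini-Hochberg adjustment called 0 of 7 at an adjusted p under 0.05, where it called 15.7% of all tested genes in either direction. Unadjusted, 6 of 7 had a p under 0.05, where 33.7% of tested genes did, and the Wald test of DESeq2 called 5 of 7 after adjustment, where it called 25.1%. Past a 1.5-fold change with an unadjusted edgeR p under 0.05, 6 of 7 were higher, where 11.2% of all tested genes were. The study used these thresholds with DESeq2, so its own calls can differ from those given here for its thresholds. The libraries of the 2 groups did not overlap for 1 gene, Blk, where 19.3% of tested genes were higher without overlap.

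Fcer2a came nearest to the threshold, with a log2 fold change of 2.78 ± 0.85 (SE; 95% interval 0.89 to 4.67; edgeR adjusted p = 0.0502). Cd79a had 2.79 ± 0.90 (adjusted p = 0.0582 with edgeR, 0.00341 with DESeq2), Ms4a1 2.60 ± 0.86 (0.0650 with edgeR, 0.00636 with DESeq2) and Blk 1.47 ± 0.50 (0.0693 with edgeR, 0.0228 with DESeq2). Cd79b and Pax5 followed with 2.004 ± 0.73 and 2.11 ± 0.90 (edgeR adjusted p = 0.0852 and 0.129). For Cd22 the log2 fold change was 0.62 ± 0.53, and its 95% interval of -0.55 to 1.79 spans lower and higher levels. The median over the 7 genes was 2.11, beside 0.02 over all tested genes.

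These values depended on single libraries. Without KO-HFD 3 the log2 fold changes were 1.27 for Cd79a, 0.56 for Cd79b, 1.33 for Ms4a1, 0.89 for Pax5, 0.72 for Blk, 1.29 for Fcer2a and -0.02 for Cd22, and 0 genes were called. Without KO-HFD 1, 5 genes were called (Cd79a, Cd79b, Ms4a1, Blk and Fcer2a), where that fit called 10.7% of its tested genes. Without WT-HFD 4, 1 was called (Ms4a1, log2 fold change 3.82, edgeR adjusted p = 0.0427), where that fit called 5.89%.

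The comparison of KO-HFD with KO-NCD reads the diet within KO mice. All 7 genes had higher means in KO-HFD. edgeR called 0 of them, where it called 0.0306% of tested genes, and the DESeq2 Wald test called 0, where it called 323 of 15657. Only Blk had an unadjusted p under 0.05, as 9.36% of tested genes did, with a log2 fold change of 1.13 ± 0.49 (edgeR adjusted p = 0.515), and by the study's thresholds 1 of 7 was higher, where 2.74% of tested genes were. The other log2 fold changes ran from 0.50 for Cd22 to 1.36 for Cd79a, whose 95% interval was -0.52 to 3.23. Without KO-HFD 3, Cd79a was at -0.15, Cd79b at -0.36, Pax5 at -0.41, Cd22 at -0.12 and Fcer2a at -0.17, with Ms4a1 at 0.01 and Blk at 0.40. The direction of 5 of the genes in this comparison therefore came from 1 library.

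On chow, KO-NCD was set against WT-NCD. All 7 genes had higher means in KO-NCD. edgeR and DESeq2 each called 0, where edgeR called 13.2% of tested genes and DESeq2 3749 of 15973. Cd22 had the largest log2 fold change, 1.20 ± 0.54 (edgeR unadjusted p = 0.0482, adjusted p = 0.156). It was the 1 gene with an unadjusted p under 0.05, where 31.3% of tested genes had one, and the 1 past the study's thresholds, where 9.54% of tested genes were higher. The groups did not overlap for 2 genes, Cd22 and Blk, both higher in KO-NCD, where 18% of tested genes were higher without overlap. Blk had a log2 fold change of 0.87 ± 0.49, and the others ran from 0.47 for Pax5 (95% interval -1.44 to 2.38) to 0.97 for Cd79b. Without KO-NCD 1, Cd79a was at 0.45, Cd79b at 0.55, Ms4a1 at 0.21, Fcer2a at 0.22 and Pax5 at -0.065.

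Between WT-HFD and WT-NCD the genes did not share a direction. edgeR called 0 of 7, where it called 36% of tested genes, no gene had an unadjusted p under 0.05, and DESeq2 called 0. Ms4a1 was at -0.77 ± 0.83, Pax5 at -0.85 ± 0.88, Fcer2a at -0.82 ± 0.81 and Cd79a at -0.50 ± 0.85 on the log2 scale. Cd79b was at 0.03 ± 0.71, Blk at 0.53 ± 0.49 and Cd22 at 1.08 ± 0.54 (edgeR adjusted p = 0.143). Without WT-HFD 4, Ms4a1 was at -1.98, Pax5 at -1.78, Fcer2a at -1.45 and Cd79a at -1.48. For Ms4a1 the 95% interval of -2.59 to 1.06 leaves a large fall as well as a rise possible at 3 libraries per group.

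The diet by genotype interaction, the HFD change in KO minus that in WT, was positive for 6 of the 7 genes, with edgeR and DESeq2 calling 0 and no unadjusted p under 0.05, where edgeR called 17.7% of tested genes. Fcer2a had the largest value, 2.13 ± 1.15 on the log2 scale (edgeR adjusted p = 0.229), and Cd22 was negative at -0.58 ± 0.75. Without KO-HFD 3, Fcer2a was at 0.67, and Cd79b and Blk were negative at -0.38 and -0.12. The comparisons share libraries (KO-HFD 3 enters 3 of these 5), so their values are not independent of one another.

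**Figure D2:**
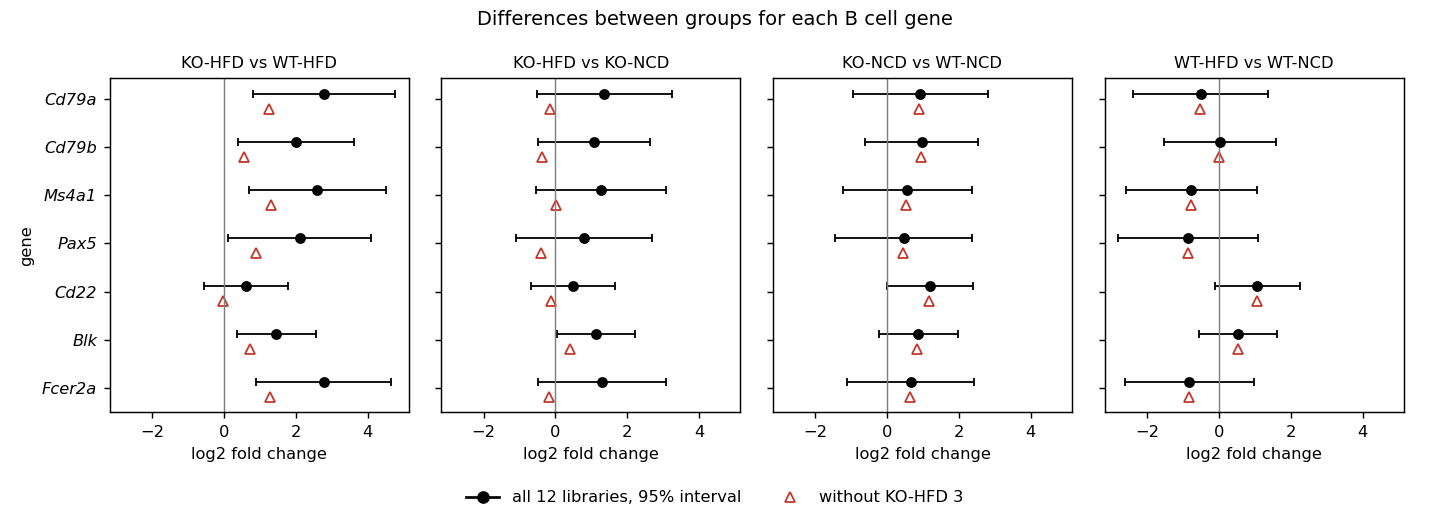
Log2 fold change of each B cell gene in 4 comparisons, from all 12 libraries with its 95% interval (black) and without KO-HFD 3 (red triangles). In KO-HFD against KO-NCD the triangles lie between -0.41 and 0.40, and in KO-HFD against WT-HFD they move towards 0 for all 7 genes, with Cd79a at 1.27 instead of 2.79.

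Ratios between the genes within a library are free of library scaling. Cd79a to Ms4a1 stayed within 1.11 to 1.78 reads per read over all 12 libraries, and Fcer2a to Ms4a1 within 0.39 to 0.78. Those genes kept to a narrow range of proportions, while Ms4a1 itself stood at 27.5 CPM in KO-HFD 3 and 0.88 CPM in WT-HFD 2. Cd22 did not. The ratio of Cd22 to Ms4a1 was 15.3 in WT-HFD 1, 6.43 in WT-HFD 2 and 1.70 in WT-HFD 4, against 0.87 to 2.07 in all 9 libraries of the other groups. Blk to Ms4a1 reached 1.09 and 1.79 in WT-HFD 1 and 2, against at most 0.84 outside WT-HFD. Cd79b to Ms4a1 reached 4.02 and 2.67 in WT-HFD 1 and 2, against at most 1.51 outside WT-HFD. Markers of macrophages summed to 5778, 3944 and 4695 CPM in WT-HFD 1, 2 and 4, above all other libraries. Their part in the ratios was not tested. Relative to Ptprc, the pan-leukocyte gene of CD45, Ms4a1 ranged from 0.0036 in WT-HFD 2 to 0.16 in KO-HFD 3.

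**Figure D3:**
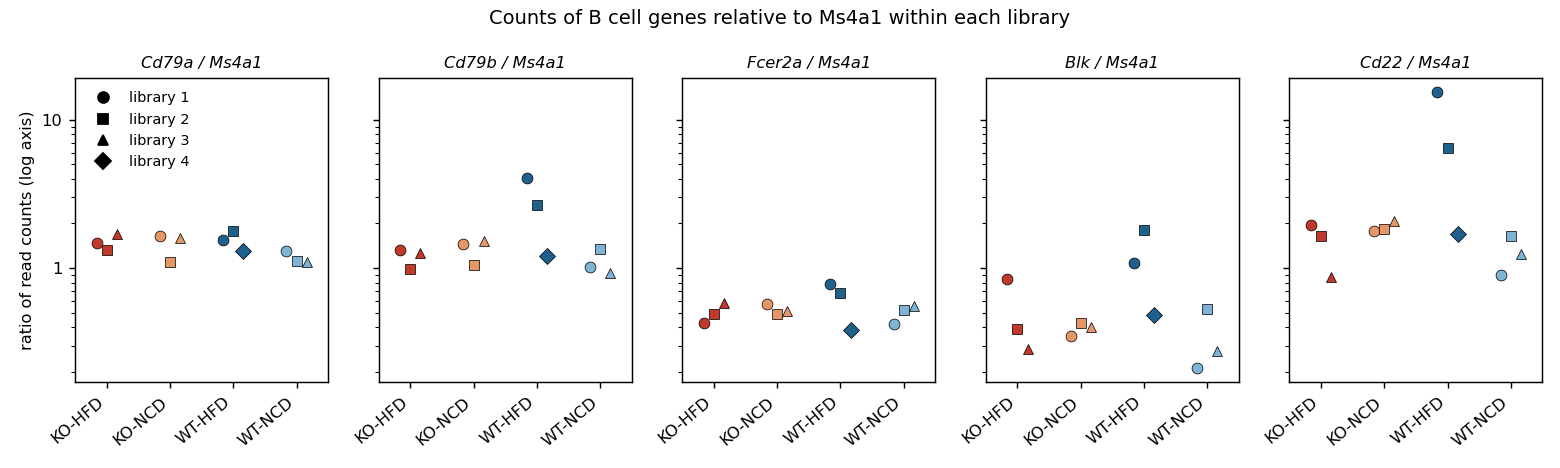
Read count of 5 B cell genes divided by that of Ms4a1 within each library, on a log axis with 1 point per library. Cd79a stays between 1.11 and 1.78 and Fcer2a between 0.39 and 0.78, while Cd22 reaches 15.3 in WT-HFD 1 and stays at or below 2.07 outside the WT-HFD group.

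Most of the 10 genes whose pattern was most like the mean z-score of the 7 over the 12 libraries are known from B cells. Tnfrsf13c, the receptor of the survival factor BAFF, had a Pearson r of 0.962 and Cxcr5, the receptor that guides B cells to follicles, one of 0.960. Siglecg (0.948), Fcmr (0.947), Bank1 (0.942), Srpk3 (0.934), H2-Ob (0.934), Tbc1d10c (0.930) and Spib (0.919) were also among the 10. Since KO-HFD 3 pulls on every such value, r was also taken over the other 11 libraries, where Tnfrsf13c had 0.944, Cxcr5 0.910 and Spib 0.841. Among the 7 genes themselves, Cd79b followed the score most closely at 0.984 and Cd22 least at 0.759, or 0.593 without KO-HFD 3. Each of the 7 is part of the score, which raises its own r, so these values do not compare with those above. These correlations describe libraries that share groups and depth, and carry no test.

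Of 17 other B cell genes, 13 had their highest level in KO-HFD 3, where 5.44% of all tested genes did. Between KO-HFD and WT-HFD, 2 of the 17 rose and 1 fell, where edgeR called 15.7% of all tested genes in either direction. The median log2 fold change of the 17 was 1.39. Fcmr, the IgM receptor, rose by 2.69 ± 0.80 (edgeR adjusted p = 0.0444), Ebf1, a lineage factor that adipocytes and their progenitors also express, rose by 0.59 ± 0.17 (0.0377), and Cd72, a co-receptor also found on macrophages, had -1.60 ± 0.36 (0.0174). DESeq2 called 7 higher and 1 lower, where it called 25.1% of tested genes. Without KO-HFD 3 the calls of Fcmr (1.39) and Ebf1 (0.63) were lost and 0 of 17 rose with edgeR. The same was so without KO-HFD 2, KO-NCD 3, WT-HFD 2, WT-HFD 4 or WT-NCD 2, and 5 rose without KO-HFD 1. The call of Cd72 was lost without KO-HFD 2 or WT-HFD 4. In KO-HFD against KO-NCD, 0 of 17 passed with edgeR or DESeq2 and 0 had an unadjusted p under 0.05, and in KO-NCD against WT-NCD edgeR called 0, DESeq2 1, and 1 had an unadjusted p under 0.05. In WT-HFD against WT-NCD, 3 rose, where edgeR called 36% of tested genes. These were Cd72 (2.74 ± 0.38, edgeR adjusted p = 0.000466), Cd83 (1.82 ± 0.41, 0.00618) and Cd37 (1.65 ± 0.39, 0.00801). All 3 are also made by myeloid cells.

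Cytokine and chemokine genes that guide and sustain B cells were mixed. Among 17 such genes, 1 rose and 2 fell in KO-HFD against WT-HFD, where edgeR called 15.7% of all tested genes. Tnfrsf13c rose by 2.89 ± 0.81 (edgeR adjusted p = 0.0379), with levels of 1.14, 3.02 and 10.8 CPM in KO-HFD 1, 2 and 3, against 0.35, 0.43 and 1.25 CPM in WT-HFD 1, 2 and 4. Without KO-HFD 3 it was at 1.61, and its call was lost there, without KO-HFD 2, KO-NCD 3 or WT-NCD 1, and without any 1 of the WT-HFD libraries. Il7r, the receptor of a lymphocyte survival factor, fell by 3.13 ± 0.53 in KO-HFD against WT-HFD (0.00544) and rose by 3.88 ± 0.55 in WT-HFD against WT-NCD (0.000504). Tnfsf13, the gene of the ligand APRIL, fell by 1.00 ± 0.28 (0.0366), a call lost without KO-HFD 1 or 2, WT-NCD 3 or any 1 of the WT-HFD libraries. Cxcr5 was not called between KO-HFD and KO-NCD (1.44 ± 0.74, adjusted p = 0.589) or between KO-HFD and WT-HFD (1.87 ± 0.75, 0.111), and without KO-HFD 3 it was at 0.27 and 0.68.

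Genes that relay the B cell receptor signal did not follow the receptor's own chains. Of 16 such genes, 14 rose in WT-HFD against WT-NCD, where edgeR called 36% of all tested genes in either direction. In KO-HFD against WT-HFD, 9 fell with edgeR, where it called 15.7%, or 14 with DESeq2, where it called 25.1%. Btk, the kinase lost in human X-linked agammaglobulinaemia, stood at 14.1, 11.2 and 17.4 CPM in KO-HFD 1, 2 and 3, against 39.4, 27.2 and 39.8 CPM in WT-HFD 1, 2 and 4. Its log2 fold change was -1.31 ± 0.25 in KO-HFD against WT-HFD (edgeR adjusted p = 0.00875) and 2.19 ± 0.26 in WT-HFD against WT-NCD (0.000186). Syk, the kinase recruited to CD79A and CD79B, had -1.78 ± 0.28 (0.00404) and 2.39 ± 0.28 (0.000195) in the same comparisons, and Lyn and Vav1 had 1.70 ± 0.25 and 2.44 ± 0.37 in WT-HFD against WT-NCD. The median over the 16 genes was -1.09 in KO-HFD against WT-HFD, opposite in sign to the 2.11 of the 7 B cell genes. Over the fits that left out 1 library, 2 to 12 of these 16 genes fell in KO-HFD against WT-HFD (2 without KO-HFD 2 or WT-HFD 4, 4 without KO-HFD 1, 5 without KO-HFD 3 or KO-NCD 3) and 12 to 15 rose in WT-HFD against WT-NCD. On chow, 2 rose in KO-NCD against WT-NCD, Pik3ap1 (1.49 ± 0.40, adjusted p = 0.0355) and Lyn (0.82 ± 0.24, 0.0477), and with 1 library left out 0 did so without KO-NCD 1, KO-NCD 3, WT-NCD 1 or WT-NCD 3, and 9 without KO-NCD 2. DESeq2 called 8 there, where it called 3749 of 15973 tested genes, and 11 had an unadjusted p under 0.05, where 31.3% did. edgeR on all 12 libraries called 13.2% of tested genes on chow. With the replicate block, 2 fell in KO-HFD against WT-HFD and 0 rose on chow.

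Most of these signalling genes are also active in macrophages, and the summed level of 12 macrophage markers, like theirs, was highest in WT-HFD. The macrophage markers summed to 1456 to 3440 CPM in KO-HFD and 1693 to 2734 CPM in KO-NCD, against 3944 to 5778 CPM in WT-HFD and 1504 to 1822 CPM in WT-NCD. With edgeR, 10 of 12 rose in WT-HFD against WT-NCD, where 36% of all tested genes were called in either direction. In KO-HFD against WT-HFD, 5 of 12 fell, where 15.7% of tested genes were called. With 1 library left out, 8 to 11 rose (8 without WT-NCD 3) and 4 to 10 fell (4 without KO-HFD 2, 10 without KO-HFD 3). KO-HFD 3 was the highest of the KO libraries, at 3440 CPM. Adgre1, the gene of the macrophage marker F4/80, lay between 60.05 and 98.2 CPM in KO-HFD and between 69.9 and 125.1 CPM in KO-NCD, against 244 to 493 CPM in WT-HFD and 42.0 to 62.95 CPM in WT-NCD. The part of macrophage transcripts in the signalling genes and in Cd22 was not tested.

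T cell markers were higher in KO than in WT on both diets. The 16 markers summed to 59.3, 68.6 and 132 CPM in KO-HFD 1, 2 and 3 and 87.9, 62.3 and 96.0 CPM in KO-NCD 1, 2 and 3, against 33.1, 42.2 and 46.2 CPM in WT-HFD 1, 2 and 4 and 43.7, 47.5 and 30.5 CPM in WT-NCD 1, 2 and 3. Every KO library lay above every WT library in that sum, which was not so for the B cell genes. With edgeR, 4 of 16 rose in KO-HFD against WT-HFD, where 15.7% of all tested genes were called in either direction. In KO-NCD against WT-NCD, 6 of 16 rose, where 13.2% of tested genes were called. With 1 library left out, 2 to 5 rose in the first (2 without KO-HFD 3, WT-NCD 2 or any 1 of the WT-HFD libraries). In the second, 1 to 8 rose (1 without KO-NCD 1, KO-NCD 3, WT-NCD 1 or WT-NCD 3). With the replicate block, 1 rose in each. DESeq2 called 6 and 9, where it called 4084 of 16290 and 3749 of 15973 tested genes. Cd4 rose by 2.18 ± 0.43 (adjusted p = 0.0103) and Cd247, the CD3 zeta chain, by 0.98 ± 0.19 (0.00944) in KO-HFD against WT-HFD, and both calls held with any 1 library left out. In KO-HFD 3 the B cell sum was the larger, at 160 against 132 CPM, and in KO-HFD 1 it was the smaller, at 18.6 against 59.3 CPM.

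**Figure D4:**
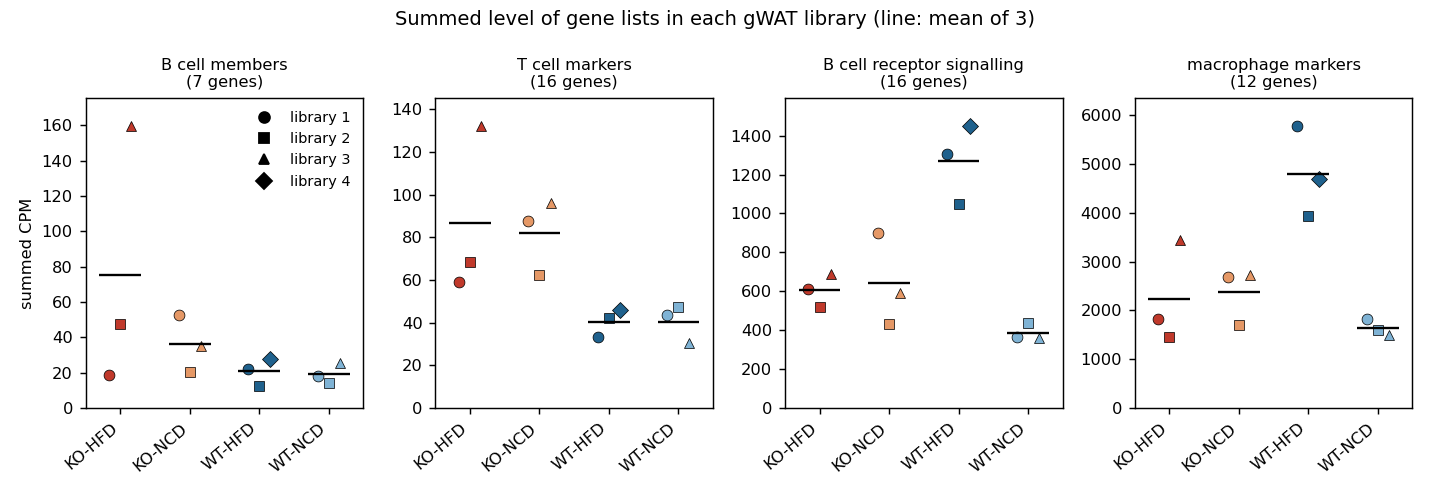
Summed CPM of the 7 B cell genes, 16 T cell markers, 16 B cell receptor signalling genes and 12 macrophage markers in each library, on linear axes from 0, with a line at the mean of 3 libraries. B cell genes are highest in KO-HFD 3 at 159.5 CPM, whereas macrophage markers and signalling genes are highest in the WT-HFD libraries.

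The 10 plasma cell genes did not share a pattern. Their sum was highest in WT-HFD 4, at 866 CPM, and stood at 694 CPM in KO-HFD 3. Xbp1, a regulator of the secretory program, and Cd38 were highest in WT-HFD 4, Derl3 in WT-NCD 2 and Tnfrsf17, the receptor BCMA, in KO-NCD 3, and these 4 are named after their values were seen. Jchain, the joining chain of polymeric antibodies, stood at 29.8, 28.4 and 145 CPM in KO-HFD 1, 2 and 3 and 4.53, 8.81 and 41.3 CPM in KO-NCD 1, 2 and 3, against 4.92, 9.04 and 14.3 CPM in WT-HFD 1, 2 and 4 and 31.0, 21.2 and 39.4 CPM in WT-NCD 1, 2 and 3. KO-HFD 3 was the highest library here too, and all KO-HFD libraries lay above all WT-HFD libraries, as for Blk but not for the other B cell genes. The WT-NCD libraries lay near KO-HFD 1 and 2. Its log2 fold change was 2.84 ± 0.88 in KO-HFD against WT-HFD (edgeR adjusted p = 0.0517) and 1.89 ± 0.85 in KO-HFD against KO-NCD (0.529). Without KO-HFD 3 it was at 1.61 (0.194) and 0.68 (0.931), and the first of these comparisons was called without KO-NCD 1 or KO-NCD 3, with an adjusted p down to 0.0298. Sdc1, which marks plasma cells but is also made by other cells, had -1.33 ± 0.31 in KO-HFD against WT-HFD (0.0181), a call lost without KO-HFD 2 or KO-HFD 3. Of the 10 genes, Sdc1 was the 1 called in that comparison by edgeR, where it called 15.7% of tested genes. DESeq2 called 1 higher and 1 lower, where it called 25.1%, and 4 had an unadjusted p under 0.05. The 13 immunoglobulin genes of the list were not analysed here.

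Lymph node stroma was read through 9 genes, as a check on lymphoid tissue in the dissected fat. They summed to 14.8, 23.3 and 22.7 CPM in KO-HFD 1, 2 and 3 and 7.50, 91.6 and 11.01 CPM in KO-NCD 1, 2 and 3, against 5.71 to 11.3 CPM in WT-HFD and 9.73 to 15.3 CPM in WT-NCD. KO-HFD 2 and 3 were thus nearly level and above all libraries but KO-NCD 2, while the B cell sum of KO-HFD 3 was well above that of KO-HFD 2. The high value of KO-NCD 2 was mostly Ccl21a, a chemokine of lymphatic vessels and lymph node stroma named after its values were seen, at 70.5 CPM, and that library was the lowest of KO-NCD in the B cell sum. Glycam1, which marks the high endothelial venules of lymph nodes, had 0 reads in 11 libraries, KO-HFD 3 among them, which allows up to 3 reads each, and 2 reads in WT-HFD 2. The part of lymphoid tissue in the B cell transcripts was not tested.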

How the data were processed

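RNA from gWAT was sequenced in 12 libraries. According to the deposited notes, the authors used bcl2fastq 2.20.0, Trimmomatic, HISAT2 2.1.0 on mm10 and StringTie 1.3.4d, and deposited whole-number read counts per Entrez gene, used here as raw counts. The kit was a stranded one, and no strand setting is given. Of 19792 IDs, 19745 matched a RefSeq symbol. Counts were filtered with filterByExpr (minimum count 10, minimum total 15; 99.989% of counts kept), scaled by TMM and fitted with edgeR 4.0.16 in R 4.3.3 on all 12 libraries (8 residual degrees of freedom). Each printed CPM is TMM-scaled, and CPM per kb uses the GENCODE union of exons. P-values were Benjamini-Hochberg adjusted over 16352 genes, and DESeq2 1.42.0 was an alternative. The fit was tested on simulated counts.

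The 7 genes, the lists and the naming rule were chosen with earlier results of these data known. The rule names all 7 genes, up to 4 genes of each list with the smallest p in a comparison, the 10 genes most like the score, and Gja1, Adgre1 and Ptprc. A gene that the rule names is not reported here. Trappc5, Adipoq and Glycam1 are named as checks outside it. Numbers shared by KO-HFD and KO-NCD libraries were checked: deviations from the group means correlated at 0.468, 0.699 and 0.195 for numbers 1, 2 and 3. Unlike numbers of these groups ran from -0.571 to 0.182, the latter for KO-HFD 3 with KO-NCD 1, so number 3 was hardly set apart. Deviations from a mean of 3 libraries also constrain one another. A pairing is therefore not established, no label gives one, and the replicate block is an alternative. A count of 0 allows up to 3 reads, for counting error only.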

Additional observations from a re-analysis of the deposited data

Results flagged for a closer look

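Btk, Syk, Pik3ap1, Inpp5d and Cd72 responded to HFD differently in KO and WT, by the interaction term of the edgeR fit. edgeR and DESeq2 called 0 of the 7 B cell genes there, where edgeR called 17.7% of tested genes and DESeq2 4144 of 15973. Of the 7, 0 had an unadjusted p under 0.05, where 5327 of 16352 tested genes did. The difference of the HFD change, KO minus WT, was -2.14 for Btk (adjusted p = 0.00452), -2.33 for Syk (0.00457), -3.05 for Pik3ap1 (0.00677) and -2.23 for Inpp5d (0.00710) on the log2 scale, all from the B cell receptor signalling list, and -2.40 for Cd72 (0.0115). Without both WT-NCD 1 and WT-NCD 2, which left WT-NCD 3 as the only library of its group, Syk was at -2.27 and Inpp5d at -2.30.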

How the results depend on the processing

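With edgeR, 0 of the 7 B cell genes were called in each comparison under other size factors, no scaling or no filter. The same held in a fit of the groups compared alone (not run for the interaction). It also held without the seminal vesicle genes and without both KO-NCD 2 and KO-HFD 2. In KO-HFD against WT-HFD the number was 5 with DESeq2, 6 at the study's thresholds and 0 to 5 with 1 library left out. The study's thresholds gave 1 in KO-HFD against KO-NCD and 1 in KO-NCD against WT-NCD. With the replicate block, 0 were called in every comparison, also in the KO libraries alone, so the block changed no call.

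Signs turned in these cases, all among values that were not called, and the cause was not tested. Leaving out both WT-NCD 1 and WT-NCD 2 left WT-NCD 3 as the only library of its group. Cd79b was then at -0.24 (WT-HFD against WT-NCD) and Pax5 at -0.14 (KO-NCD against WT-NCD). Without both KO-HFD 3 and WT-HFD 4, chosen after seeing the data, KO-HFD against KO-NCD gave Cd79a -0.15, Cd79b -0.36, Pax5 -0.41, Cd22 -0.12 and Fcer2a -0.17, KO-HFD against WT-HFD gave Cd22 -0.13, the interaction gave Cd79b -0.036, and WT-HFD against WT-NCD gave Cd79b -0.32, with 1 gene called there (Ms4a1, lower). With 1 library left out, KO-HFD against KO-NCD ran from -0.15 to 1.85 for Cd79a, -0.36 to 1.54 for Cd79b, -0.41 to 1.33 for Pax5, -0.12 to 0.90 for Cd22 and -0.17 to 1.81 for Fcer2a. KO-HFD against WT-HFD ran from -0.017 to 1.08 for Cd22, the interaction from -0.38 to 1.51 for Cd79b and -0.12 to 0.92 for Blk, KO-NCD against WT-NCD from -0.065 to 0.88 for Pax5, and WT-HFD against WT-NCD from -0.31 to 0.29 for Cd79b. With no scaling, the median of all genes moved to 0.26 in WT-HFD against WT-NCD, 0.32 in KO-NCD against WT-NCD and -0.26 in the interaction. The split of all called genes was then 4841 higher and 1673 lower in WT-HFD against WT-NCD (2880 and 3001 with TMM), 3255 and 517 in KO-NCD against WT-NCD (861 and 1293), and 801 and 2743 in the interaction (1491 and 1402). Over all genes, edgeR called 5 in KO-HFD against KO-NCD and DESeq2 323. In KO-HFD against WT-HFD, edgeR called 2570, or 661 with the block, and DESeq2 4084. Pax5 rested on 9 to 162 reads per library, so its values are the least precise.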
